A study of Homo sapiens with 12 samples.

Results

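The type I interferon response genes were followed in human neutrophil-like cells kept with glucose, with advanced glycation end products (AGEs) or with both. Their RNA levels with glucose lay slightly below those without it in most genes, and no gene of the set passed the adjusted threshold. The set was a list of 56 gene symbols sorted by role, from viral RNA sensors to effectors. It was chosen with earlier results of these data known, so it is not independent of them. Of these, 48 were in the deposited table and 46 passed the filter on low values, out of 9751 genes tested. The 8 symbols OAS2, IFI44, IFI44L, ISG20, MX1, PARP14, XAF1 and RSAD2 were not analysed here. IFIT1 and OASL stayed below 1 FPKM (read fragments per length of transcript and size of library) in every library and were left untested.

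Cells sense viral RNA and DNA through receptors such as RIG-I (DDX58), MDA5 (IFIH1) and IFI16, and answer by secreting type I interferons. These bind the IFNAR receptor, whose kinases JAK1 and TYK2 activate STAT2, a part with IRF9 of the complex ISGF3, which binds the interferon-stimulated response element (ISRE) in the promoters of antiviral genes. In neutrophils the set is known for its strong induction in lupus and in viral infection, and part of it is expressed without added interferon.

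HL-60 is a human promyelocytic leukaemia cell line that can be induced towards neutrophils, and the labels name all cells here as neutrophils induced from it. They grew in RPMI medium with foetal bovine serum, and the glucose of the medium itself is not given in the sources used here. Throughout, with and without glucose mean with and without the labelled D-glucose, so the groups without it need not be free of glucose. Of the 4 groups of 3 libraries each, the first had AGEs (0.05 ug/mL) with D-glucose (30 mmol/L), the second D-glucose (30 mmol/L), the third AGEs (0.05 ug/mL), and the fourth, the control, bovine serum albumin (BSA, 0.05 ug/mL). All were kept for 24 h. Only the control is labelled as holding BSA, so glucose against BSA differs in both agents, whereas AGEs with glucose against AGEs differs, per the labels, in glucose only. No osmotic control is among the groups. Whether the replicates are separate cultures is not labelled, so the spread behind each p-value may be a technical one.

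FPKM sums ran from 220444 to 233854 per library, and read depth is unknown. A pair of libraries stood apart. AGEs 1 had an estimated limma weight of 0.18, its deviations from the gene means correlated with transcript GC content across genes (r = 0.63), and glucose 3 had a weight of 0.42, against 0.8 to 1.8 in the other libraries. Where leaving them or another library out moved the printed difference of a gene by over 1.5 times, both values or the direction of the move are given, except for differences near 0. Of 6 listed neutrophil markers 5 were measured, and their summed FPKM ran from 395 to 401 in AGEs with glucose, 333 to 355 in glucose, 372 to 447 in AGEs and 407 to 424 in BSA. The 5 log2 fold changes in glucose against BSA were all below 0, with a median of -0.26. Of 4 listed monocyte markers only CSF1R was measured, at 6.23 to 7.12 FPKM in glucose and 8.77 to 10.8 FPKM in BSA. The 3 eosinophil and basophil markers measured of 4 listed summed to 2373 to 2609 FPKM in glucose and 2179 to 2447 FPKM in BSA, most of it CLC. Of 4 markers of plasmacytoid dendritic cells, a main source of type I interferon, 3 were in the table and summed to 2.42 to 4.67 FPKM over all libraries. That sum includes a second row of IL3RA, at 0 to 1.24 FPKM. Of 3 listed T and NK cell markers 2 were measured, at a sum of 5.17 to 12.2 FPKM, and of 3 B cell markers 1, at 1.12 to 1.85 FPKM. None of the measured marker sums was at 0, and the 3 listed erythroid and megakaryocyte markers were not analysed here. Fewer cells of a type and less RNA per cell cannot be told apart in these bulk libraries, and the part of cell makeup in the results was not tested.

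The promoters of 5 genes are shown because they cover both tested OAS genes, IFIT3, the divergent PARP9 promoter, and IFITM1, whose mean was higher with glucose. They are RefSeq windows of build GRCh38.p14, from 250 bases before to 50 bases after a transcript start, each read along its gene, at chr12:112906712-112907011 (+) for OAS1, chr12:112938224-112938523 (+) for OAS3, chr10:89332279-89332578 (+) for the second of 2 IFIT3 windows, chr3:122564251-122564550 (-) for the first of 2 PARP9 windows and chr11:313790-314089 (+) for IFITM1. Capitals mark matches on either strand to TTTC, 2 free bases and TTTC, the core letters of the ISRE.
OAS1: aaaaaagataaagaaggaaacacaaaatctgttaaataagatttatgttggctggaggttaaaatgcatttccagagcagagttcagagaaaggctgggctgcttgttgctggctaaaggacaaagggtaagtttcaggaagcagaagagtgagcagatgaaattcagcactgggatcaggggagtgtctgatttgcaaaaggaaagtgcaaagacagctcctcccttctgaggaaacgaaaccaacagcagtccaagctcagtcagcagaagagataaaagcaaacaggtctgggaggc
OAS3: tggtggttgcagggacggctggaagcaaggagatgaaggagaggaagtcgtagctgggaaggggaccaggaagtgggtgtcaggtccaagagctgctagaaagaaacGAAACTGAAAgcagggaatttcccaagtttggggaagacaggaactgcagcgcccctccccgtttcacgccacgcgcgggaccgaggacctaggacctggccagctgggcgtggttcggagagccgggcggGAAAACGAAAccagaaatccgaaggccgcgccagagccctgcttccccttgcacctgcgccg
IFIT3: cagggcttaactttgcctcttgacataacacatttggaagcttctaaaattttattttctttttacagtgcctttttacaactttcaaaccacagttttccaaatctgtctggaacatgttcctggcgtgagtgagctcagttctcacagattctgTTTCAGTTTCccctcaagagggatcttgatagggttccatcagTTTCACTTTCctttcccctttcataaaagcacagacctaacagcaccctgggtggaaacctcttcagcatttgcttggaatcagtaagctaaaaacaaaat
PARP9: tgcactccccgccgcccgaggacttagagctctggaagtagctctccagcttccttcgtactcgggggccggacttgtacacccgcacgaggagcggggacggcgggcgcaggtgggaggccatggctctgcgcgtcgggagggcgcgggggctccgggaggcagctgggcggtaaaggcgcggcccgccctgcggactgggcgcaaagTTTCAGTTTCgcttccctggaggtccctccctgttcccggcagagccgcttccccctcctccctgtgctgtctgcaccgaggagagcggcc
IFITM1: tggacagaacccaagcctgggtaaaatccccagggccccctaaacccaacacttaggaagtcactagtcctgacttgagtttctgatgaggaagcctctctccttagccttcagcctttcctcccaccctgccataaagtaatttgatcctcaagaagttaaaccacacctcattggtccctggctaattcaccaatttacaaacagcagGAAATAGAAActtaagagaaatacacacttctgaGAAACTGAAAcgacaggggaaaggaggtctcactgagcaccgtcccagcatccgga
No window was used for IFIT2, IRF7 and TRIM22. The OAS1 window held no match with 2 free bases. It does hold gaaacgaaa, where 1 base parts the GAAA runs, so the missing match does not show that an ISRE is absent. The OAS3 matches began 143 and 12 bases before the start, those of IFIT3 94 and 51 bases, that of PARP9 41 bases and those of IFITM1 40 and 6 bases. Of the 38 tested members with a window, 21 (55.3%) held the letters, against 3.94% of the 7992 tested genes with a window and 4.38% of all 27305 genes with one. The letters TTC, 3 free bases and GAA of the GAS element, to which STAT dimers bind and which can overlap the ISRE letters, stood in 11 of 38 members (28.9%), against 8.28% of tested genes. A match is a description of letters only, and in glucose against BSA the median log2 fold change was -0.08 over the 21 members with ISRE letters and -0.11 over the 17 without. The 17, OAS1 among them, lack these letters and are not known to lack an ISRE.

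At baseline the set was expressed over a wide range. In BSA libraries BST2 (tetherin, which holds budding virions on the cell) averaged 120 ± 6.6 FPKM (SD, n = 3 as everywhere below), SAMHD1, which depletes deoxynucleotides, 106 FPKM, IFITM1 104 FPKM and ADAR, which edits adenosine in double-stranded RNA, 96.5 FPKM. CMPK2, a mitochondrial nucleotide kinase, was lowest of the tested members at 0.948 FPKM. Over all libraries the median member averaged 8.04 FPKM, against 6.89 FPKM for all genes tested. Of the 46 tested members 43 had at least 1 FPKM in all 12 libraries. CMPK2 reached it in 4 libraries, none of them with glucose alone, and USP18 and HERC5 in 3 libraries each, all without glucose, so these 3 passed the filter only or mainly through groups without glucose.

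**Figure D1:**
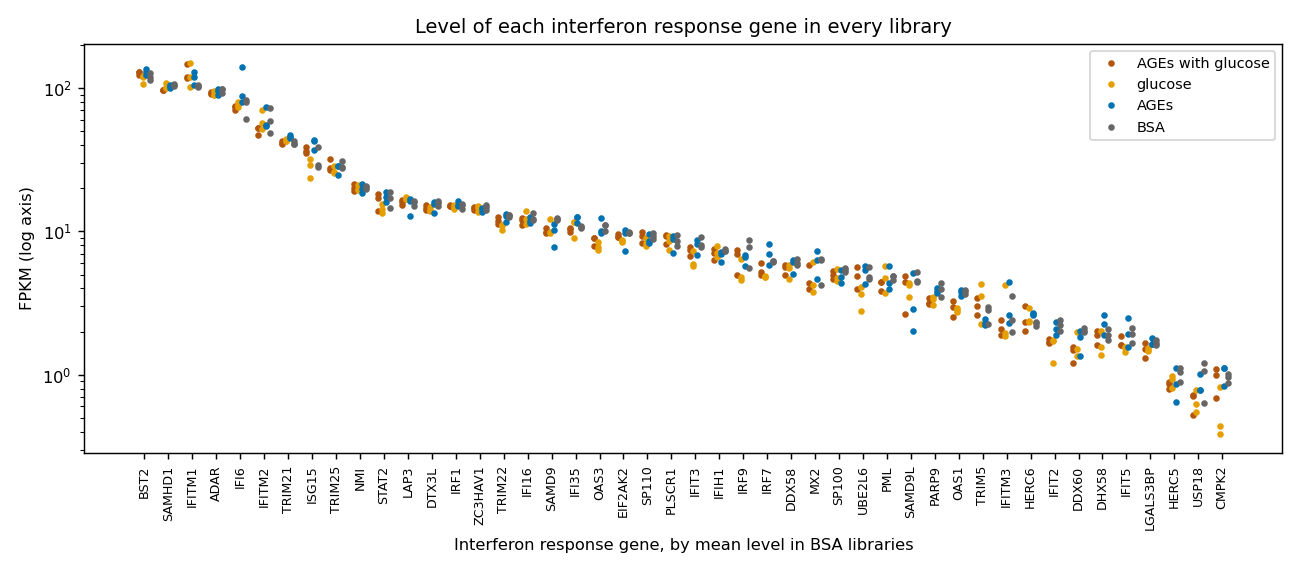
FPKM (vertical, log axis) of each of the 46 tested interferon response genes (horizontal, ordered by mean level in BSA), with 1 point per library and colours for AGEs with glucose, glucose, AGEs and BSA. Levels run from about 1 FPKM (CMPK2, 0.948 FPKM in BSA) to over 100 FPKM (BST2, 120 FPKM in BSA), and for most genes the 4 groups lie close together.

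Glucose against BSA asked how a high glucose level bears on these cells. Of 46 members 40 (87%) had a log2 fold change below 0, with a median of -0.12, while 50.4% of all genes tested lay below 0 and their median was near 0. Over the 43 members at 1 FPKM in every library it was 37, with a median of -0.11, and without AGEs 1 and glucose 3 it was 37 of 46, with a median of -0.14. The neutrophil marker sum given above also lay wholly below BSA in glucose, and its part in these values was not tested. No member passed an adjusted p of 0.05 in limma, where 0.103% of all genes (10 of 9751) did. At an unadjusted p under 0.05, 10 members were lower and 0 higher, against 5.34% lower and 4.68% higher of all genes. Of the 43 members at 1 FPKM in every library 9 were lower at that p. The 3 glucose libraries lay wholly below the 3 BSA libraries in 13 members and wholly above in 2, against 9.03% and 7.92% of all genes. The 13 were OAS1, OAS3, IFIT2, IFIT3, IFIT5, IRF7, TRIM22, UBE2L6, CMPK2, DTX3L, EIF2AK2, LGALS3BP and SAMD9L, and the 2 were TRIM21 and LAP3. Among the 13, CMPK2 reached 1 FPKM in 0 glucose libraries and in 1 BSA library.

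The OAS proteins are synthetases that, on double-stranded RNA, make oligoadenylates which activate RNase L. OAS3 stood at 7.42, 7.79 and 8.39 FPKM in glucose, against 11.0, 11.0 and 10.1 FPKM in BSA. With AGEs present it stood at 9.03, 8.99 and 7.95 FPKM in AGEs with glucose, against 12.3, 9.70 and 10.1 FPKM in AGEs. All 6 libraries with glucose lay below all 6 without it. The log2 fold change was -0.40 (SE 0.09, adjusted p = 0.168) in glucose against BSA and -0.34 (SE 0.07, adjusted p = 0.222) for glucose averaged over both backgrounds, with and without AGEs. OAS1 stood at 2.91, 2.75 and 2.83 FPKM in glucose, against 3.81, 3.91 and 3.66 FPKM in BSA. In AGEs with glucose it stood at 2.97, 2.54 and 3.24 FPKM, against 3.92, 3.77 and 3.54 FPKM in AGEs. Here too the 6 libraries with glucose did not overlap the 6 without. OAS1 had a log2 fold change of -0.32 (SE 0.08, adjusted p = 0.201) in glucose against BSA, and -0.30 (SE 0.05, adjusted p = 0.166) averaged over both backgrounds. OASL, a related protein without synthetase activity, was measured at 0.280 to 0.830 FPKM and was not tested.

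The call for OAS3 turned with the fit. These settings also called more of all genes, against 10 in glucose against BSA and 4 averaged over both backgrounds in the fit used elsewhere. With library weights in limma, which give AGEs 1 and glucose 3 less say and called 127 and 16 genes, the adjusted p of OAS3 was 0.0221 in glucose against BSA and 0.0446 averaged over both backgrounds. Without AGEs 1 and glucose 3 it was 0.0393 in glucose against BSA, where 73 genes were called. With GC and length trends removed, where 48 and 18 genes were called, OAS3 (adjusted p = 0.0437) and TRIM22 (0.0487) passed in glucose against BSA, and OAS3 (0.0367) and OAS1 (0.0481) averaged over both backgrounds. The last 2 settings were chosen after seeing the data.

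**Figure D2:**
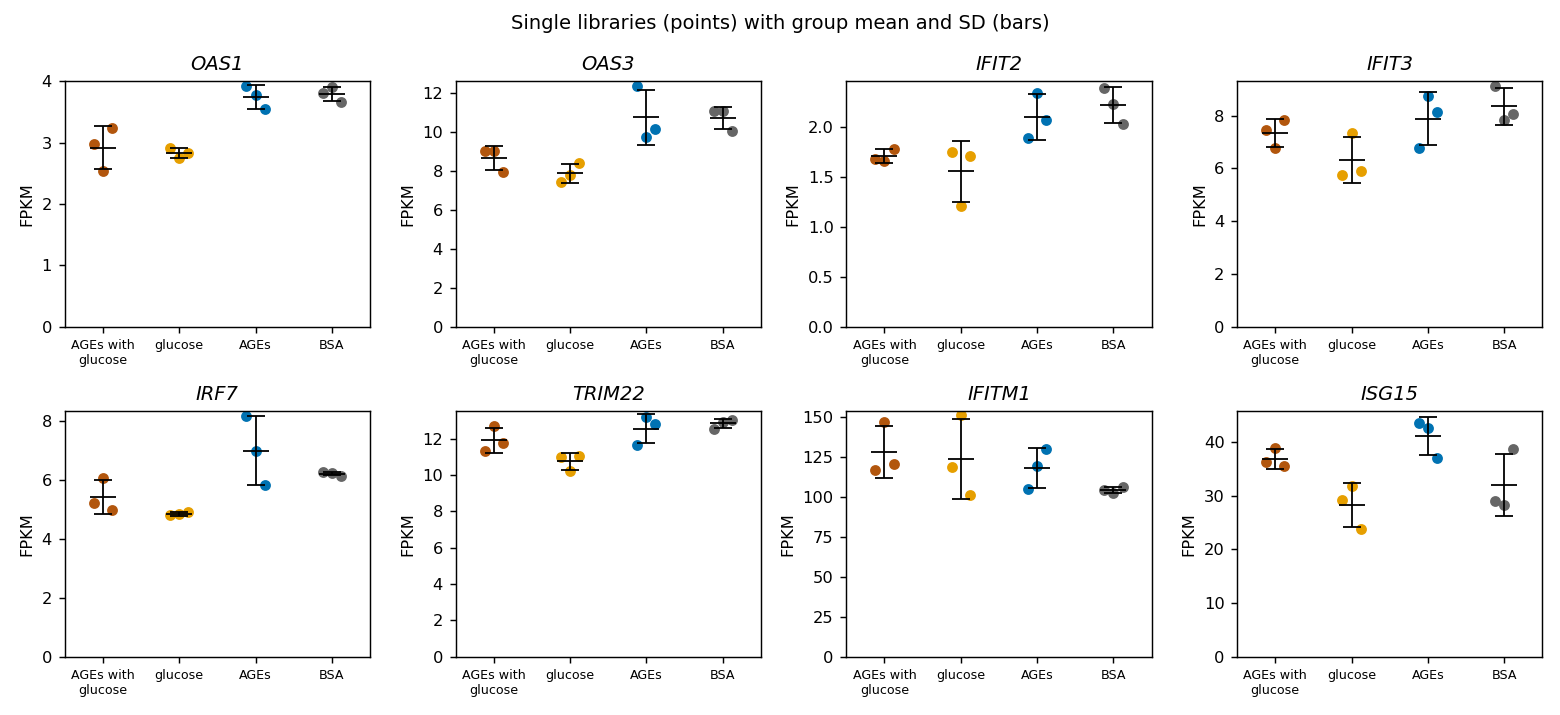
FPKM (vertical, from 0) of 8 interferon response genes in AGEs with glucose, glucose, AGEs and BSA (horizontal), with points for single libraries and bars for the group mean and SD (n = 3). In OAS1, OAS3 and IFIT2 every library with glucose lies below every library without it, while IFITM1 is higher in AGEs with glucose than in BSA.

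The IFIT proteins bind viral RNA and block its translation. IFIT2 stood at 1.75, 1.21 and 1.71 FPKM in glucose, against 2.39, 2.23 and 2.03 FPKM in BSA, and at 1.68, 1.66 and 1.78 FPKM in AGEs with glucose, against 1.89, 2.34 and 2.07 FPKM in AGEs. It was the third member whose 6 libraries with glucose all lay below the 6 without, and 0.472% of all genes (46) showed that pattern. Its log2 fold change was -0.34 (SE 0.10, adjusted p = 0.308) in glucose against BSA and -0.27 (adjusted p = 0.341) averaged over both backgrounds. IFIT3, the partner that stabilises IFIT1, stood at 5.74, 7.33 and 5.91 FPKM in glucose, against 9.13, 7.84 and 8.08 FPKM in BSA (log2 fold change -0.36, adjusted p = 0.311). In AGEs with glucose IFIT3 stood at 7.44, 6.75 and 7.83 FPKM and in AGEs at 6.79, 8.74 and 8.13 FPKM, so these groups overlapped. IFIT5 averaged 1.51 ± 0.07 FPKM in glucose and 1.89 ± 0.22 FPKM in BSA, without overlap, at an adjusted p of 0.597. IFIT1 lay under the filter, at 0.592 to 0.648 FPKM in AGEs with glucose, 0.448 to 0.514 FPKM in glucose, 0.583 to 0.710 FPKM in AGEs and 0.566 to 0.612 FPKM in BSA. IFIT2, IFIT3 and IFIT5 overlap LIPA in the annotation and the strand setting of the counting is not given in the sources used here, so reads from LIPA cannot be told apart.

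Among the factors that carry the signal, IRF7, the regulator that amplifies interferon production, stood at 4.79, 4.82 and 4.91 FPKM in glucose, against 6.25, 6.24 and 6.13 FPKM in BSA. In AGEs with glucose it stood at 5.21, 6.06 and 4.96 FPKM, against 8.15, 6.96 and 5.82 FPKM in AGEs. The groups were apart without AGEs and overlapped with them, and without AGEs 1 the log2 fold change with AGEs was -0.20 in place of -0.31. IRF7 had a log2 fold change of -0.30 (SE 0.10, adjusted p = 0.374) in glucose against BSA and -0.31 (SE 0.07, adjusted p = 0.284) averaged over both backgrounds. IRF9, the DNA-binding part of ISGF3, stood at 4.60, 4.79 and 6.38 FPKM in glucose, against 7.77, 8.74 and 5.55 FPKM in BSA, which overlapped. Its log2 fold change of -0.41 (SE 0.17, adjusted p = 0.473) in glucose against BSA had no counterpart with AGEs, where it was near 0 at a SE of 0.17. STAT2 stood at 13.4, 14.3 and 15.5 FPKM in glucose and at 18.7, 14.6 and 17.2 FPKM in BSA, which overlapped (log2 fold change -0.20, adjusted p = 0.615, and -0.13 without BSA 1). IRF1, which is induced mainly by interferon gamma, averaged 15.1 FPKM in AGEs with glucose, 14.8 FPKM in glucose, 15.4 FPKM in AGEs and 15.1 FPKM in BSA, with log2 fold changes from -0.03 to 0.03 and SEs of 0.06. NMI and IFI35, which bind each other and IRF and STAT proteins, had log2 fold changes of -0.01 and 0.00 in glucose against BSA. IFI35 stood at 11.7, 11.5 and 9.002 FPKM in glucose and at 10.8, 10.9 and 10.5 FPKM in BSA, and its log2 fold change was 0.11 without glucose 3. In all, 6 of 6 genes of this group lay below 0 there, with a median of -0.11, and 5 of 6 without glucose 3. NMI turned above 0 without glucose 2 and also without BSA 3.

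The sensors were 8 of 8 below 0 in glucose against BSA, at a median of -0.11 on the log2 scale, and none had an unadjusted p under 0.05. Their values ran from -0.22 to -0.01, and those near 0 rest on single libraries. IFI16 and ZC3HAV1 turned above 0 without glucose 2, and IFIH1 without glucose 1. DDX58 averaged 5.33 ± 0.62 FPKM in glucose and 6.06 ± 0.30 FPKM in BSA, and IFIH1 7.20 ± 0.68 FPKM in glucose and 7.40 ± 0.16 FPKM in BSA, both with overlap. EIF2AK2, the kinase PKR that halts translation on double-stranded RNA, stood at 8.54, 8.74 and 8.38 FPKM in glucose, against 9.67, 9.86 and 9.71 FPKM in BSA, a small difference without overlap. With AGEs this group split, 5 of 8 lying below 0, and DHX58, a RIG-I relative that tunes signalling, had a log2 fold change of -0.19 there, and -0.11 without AGEs 1.

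ISG15 is a small modifier that UBE2L6 (the conjugating enzyme) and HERC5 (the ligase) attach to proteins and USP18 removes. UBE2L6 stood at 4.09, 3.68 and 2.78 FPKM in glucose, against 5.64, 4.63 and 4.77 FPKM in BSA (log2 fold change -0.42, SE 0.14, adjusted p = 0.374). In AGEs with glucose it stood at 3.96, 4.89 and 5.64 FPKM, against 5.71, 5.36 and 4.31 FPKM in AGEs, with overlap. ISG15 itself stood at 29.2, 31.8 and 23.7 FPKM in glucose and 28.9, 28.3 and 38.7 FPKM in BSA. The BSA libraries were split, 1 of them standing well above the others, and the groups overlapped. USP18 averaged 0.652 ± 0.119 FPKM in glucose and 0.969 ± 0.299 FPKM in BSA, near the filter. HERC6, a relative of HERC5, had a log2 fold change of 0.11 (adjusted p = 0.796), and 0.03 without glucose 3.

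Of the restriction factors 9 of 10 lay below 0 in glucose against BSA, but their median of -0.04 on the log2 scale was nearest to 0 of the role groups with 5 or more genes. Among the 9, IFITM2 and IFITM3 turned above 0 without glucose 1, and BST2 and PLSCR1 without glucose 3. CMPK2 stood at 0.823, 0.439 and 0.384 FPKM in glucose, against 0.964, 0.871 and 1.01 FPKM in BSA (log2 fold change -0.34, adjusted p = 0.386). SAMHD1 averaged 103 ± 4.5 FPKM in glucose and 106 ± 1.5 FPKM in BSA. It stood at 97.2, 97.0 and 97.6 FPKM in AGEs with glucose, against 104, 101 and 106 FPKM in AGEs, without overlap but only 0.09 apart on the log2 scale. The IFITM proteins block fusion of virions with the cell membrane. IFITM1 stood at 119, 151 and 101 FPKM in glucose and at 104, 102 and 106 FPKM in BSA, with a log2 fold change of 0.23 (adjusted p = 0.642), which was 0.07 without glucose 2 and 0.36 without glucose 3. In AGEs with glucose it stood at 117, 147 and 120 FPKM, wholly above BSA (log2 fold change 0.29, adjusted p = 0.892, and 0.19 without AGEs with glucose 2). IFITM2 and IFITM3 spread within groups: IFITM3 stood at 1.85, 1.96 and 4.21 FPKM in glucose and 1.99, 3.56 and 2.39 FPKM in BSA. The IFITM genes are related in sequence, and how any shared reads were split is uncertain. MX2, which blocks nuclear import of viral genomes, stood at 3.79, 4.20 and 6.08 FPKM in glucose and 6.46, 6.28 and 4.25 FPKM in BSA, with overlap.

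**Figure D3:**
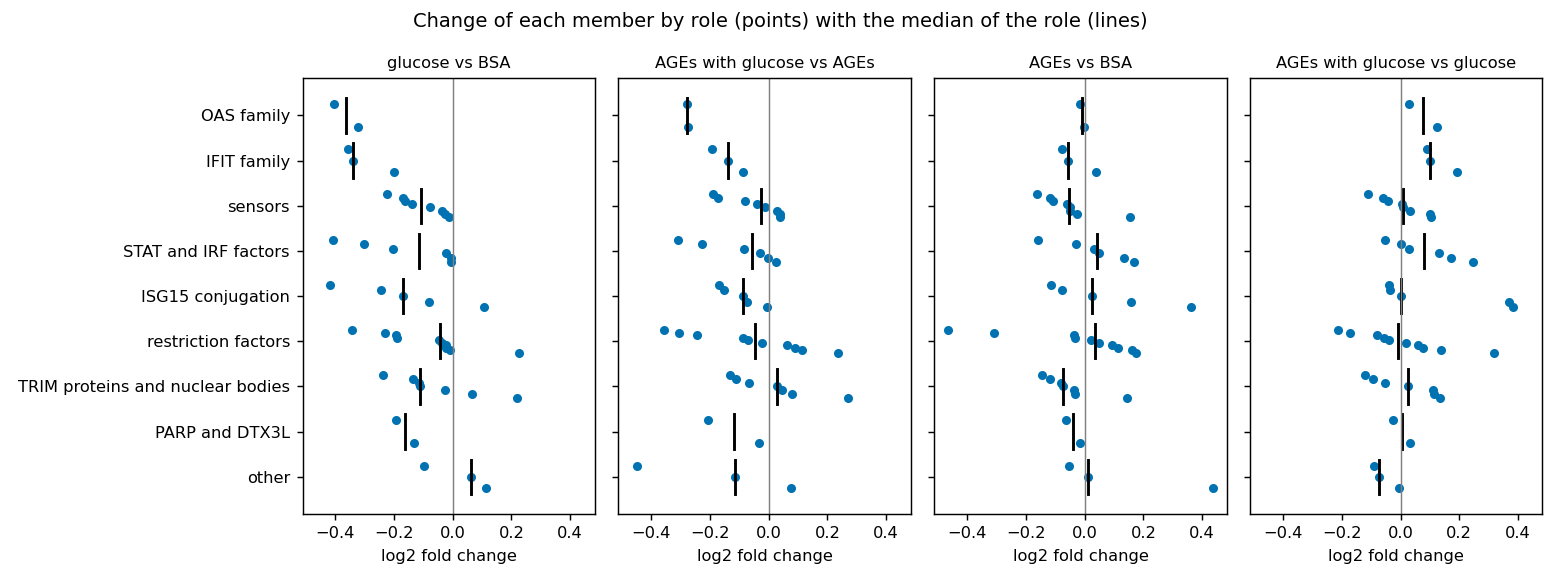
Log2 fold change (horizontal) of each tested interferon response gene (points) by role (rows), with the median of the role as a line, in 4 comparisons. The OAS and IFIT rows lie left of 0 in both glucose comparisons (OAS medians -0.36 and -0.28), close to 0 in AGEs against BSA (OAS median -0.01), and right of 0 in AGEs with glucose against glucose.

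TRIM22, a ubiquitin ligase that represses viral transcription, stood at 11.0, 10.2 and 11.0 FPKM in glucose, against 12.6, 12.9 and 13.0 FPKM in BSA (log2 fold change -0.24, SE 0.07, adjusted p = 0.309). With AGEs the difference was smaller, at 11.3, 12.7 and 11.8 FPKM in AGEs with glucose and 11.6, 13.2 and 12.8 FPKM in AGEs, with overlap. TRIM5, which binds retroviral capsids, ran the other way, at 2.62, 3.02 and 3.42 FPKM in AGEs with glucose, against 2.45, 2.22 and 2.30 FPKM in AGEs. In glucose it stood at 3.53, 2.27 and 4.29 FPKM and in BSA at 2.27, 2.85 and 2.95 FPKM, with overlap. Its log2 fold change was 0.22 (adjusted p = 0.713) in glucose against BSA, 0.07 without glucose 3, 0.13 without BSA 1 and 0.41 without glucose 2. Averaged over both backgrounds it was 0.24 (adjusted p = 0.551). PML and SP100, scaffolds of nuclear bodies, had log2 fold changes of -0.03 and -0.11 in glucose against BSA, and -0.15 and -0.18 without glucose 3. Without glucose 1, PML turned above 0 and SP100 moved nearer to 0. PML stood at 3.71, 4.75 and 5.77 FPKM in glucose and at 4.89, 4.91 and 4.56 FPKM in BSA, with overlap. PARP9, which with the ubiquitin ligase DTX3L modifies histones in interferon-treated cells, averaged 3.23 ± 0.18 FPKM in AGEs with glucose, 3.31 ± 0.21 FPKM in glucose, 3.87 ± 0.17 FPKM in AGEs and 3.94 ± 0.46 FPKM in BSA. Its log2 fold change averaged over both backgrounds was -0.20 (adjusted p = 0.394). PARP9 and DTX3L lie head to head and overlap, so reads between them cannot be told apart without strand. In all, 11 tested members overlap another coding gene in the annotation, and reads of the overlapping genes may be mixed in them. They include TRIM5 (with TRIM34, TRIM6 and TRIM6-TRIM34), EIF2AK2 (with GPATCH11), CMPK2 (with RSAD2) and SAMHD1 (with TLDC2).

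Glucose in the presence of AGEs used a separate set of 6 libraries, none of them shared with glucose against BSA. Here 33 of 46 members (71.7%) lay below 0, against 49.6% of all genes, and the median member stood at -0.08 on the log2 scale. Of the 43 members at 1 FPKM in every library 30 (69.8%) lay below 0. No member passed, where 0.0103% of all genes did. At an unadjusted p under 0.05, 7 members were lower and 0 higher, against 2.23% and 1.5% of all genes, and 10 members were lower without overlap and 1 higher, against 4.81% and 4.01%. The 7 became 2 without AGEs with glucose 3, 3 without AGEs with glucose 1 and 4 without AGEs 2. Without AGEs 1 and glucose 3, 37 of 46 lay below 0, and without AGEs 2 it was 29 of 46, with a median of -0.05. The neutrophil marker sums overlapped here, at 395 to 401 FPKM in AGEs with glucose and 372 to 447 FPKM in AGEs. Other markers were apart, the eosinophil and basophil sum at 2676 to 2761 FPKM in AGEs with glucose and 2415 to 2576 FPKM in AGEs, and CSF1R at 8.18 to 8.39 FPKM in AGEs with glucose and 8.45 to 10.8 FPKM in AGEs, and their part was not tested. The smallest p was that of OAS1 (log2 fold change -0.28, adjusted p = 0.984), and without AGEs 1 its log2 fold change was -0.25. That of OAS3 was -0.28, and -0.18 without AGEs 1. Of the 46 members 30 (65.2%) lay below 0 in both glucose comparisons, against 28.5% of all genes. The 10 members with an unadjusted p under 0.05 in glucose against BSA were OAS3, OAS1, IFIT2, TRIM22, IFIT3, IRF7, UBE2L6, CMPK2, IRF9 and PARP9. All 10 lay below 0 with AGEs too, with a median of -0.14, where 68.3% of the 521 genes chosen the same way did. Not all of these signs were stable, and that of IRF9 was near 0. IRF9 and UBE2L6 turned above 0 without AGEs with glucose 1, and CMPK2 without AGEs with glucose 3. Of the 10, 9 had at least 1 FPKM in every library, and CMPK2 did not. Across the members the fold changes of the 2 comparisons correlated at r = 0.3, and across all genes at r = 0.11, given as a description.

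**Figure D4:**
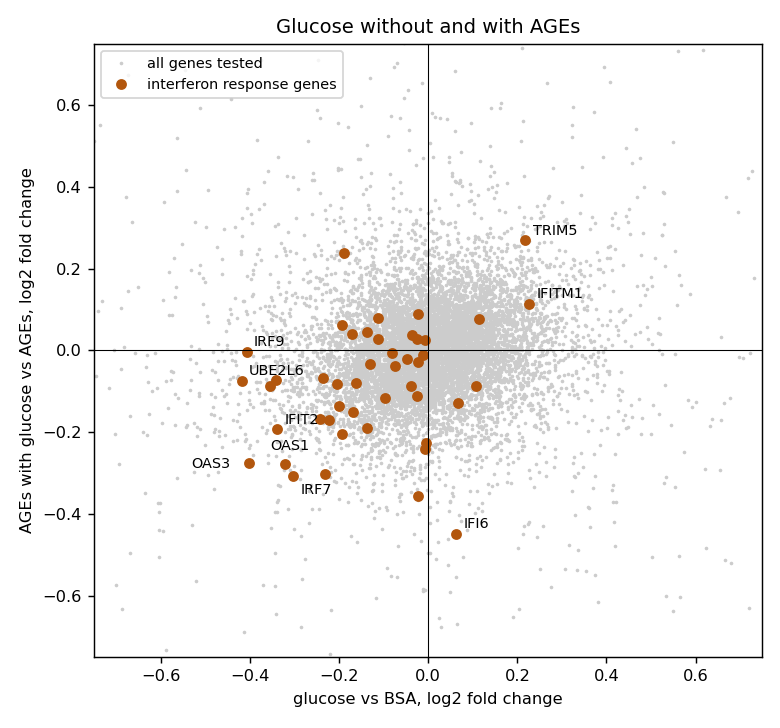
Log2 fold change in glucose against BSA (horizontal) and in AGEs with glucose against AGEs (vertical) for the interferon response genes (large points) and all genes tested (small points, some of them outside the axes). The 2 comparisons share no library, and 30 of 46 members lie in the lower left quadrant, OAS1, OAS3 and IRF7 farthest along both axes.

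Averaged over both backgrounds, 37 of 46 members (80.4%) lay below 0 with glucose and the median member stood at -0.09 on the log2 scale, and without AGEs 1 and glucose 3 it was 42 of 46 and -0.11. At an unadjusted p under 0.05, 12 members were lower and 1 higher, against 5.14% and 3.86% of all genes, and none passed after adjustment, where 0.041% of all genes did. The 12 include CMPK2 and USP18, and over the 43 members at 1 FPKM in every library 34 lay below 0 and 10 were lower at that p. The test of whether the glucose difference depended on AGEs gave no call among the members, where 0.0103% of all genes had one, and 1 member below 0 and 0 above at an unadjusted p under 0.05, against 2.48% and 2.41% of all genes. That member was TRIM21 (log2 difference -0.20, adjusted p = 0.965). TRIM21, a cytosolic antibody receptor, stood at 42.9, 43.0 and 44.0 FPKM in glucose, against 40.7, 42.6 and 40.5 FPKM in BSA, but at 40.9, 42.8 and 41.5 FPKM in AGEs with glucose, against 44.7, 47.3 and 45.2 FPKM in AGEs. The mean deviation of the members from their own means over the 12 libraries, on the log2 scale, was -0.06 to -0.01 in AGEs with glucose, -0.10 to -0.02 in glucose, 0.02 to 0.10 in AGEs and 0.05 to 0.06 in BSA. For this mean, which includes CMPK2, USP18 and HERC5, all 6 libraries with glucose lay below the 6 without, and glucose 3 was the highest of its group.

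**Figure D5:**
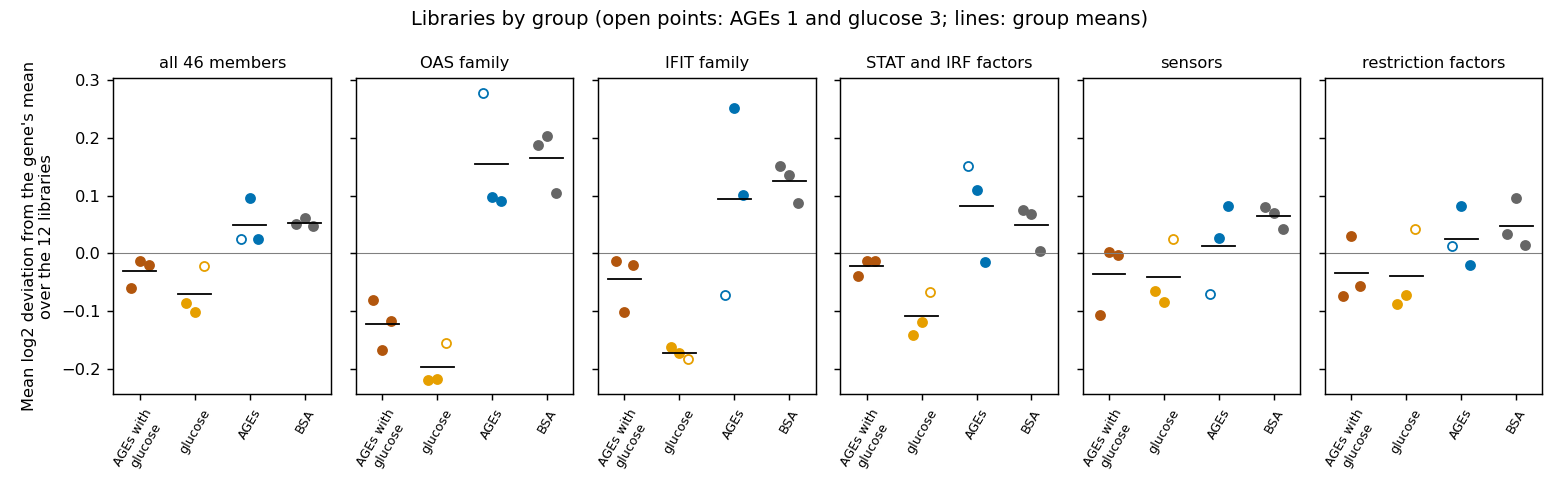
Mean log2 deviation (vertical) of the 46 members and of 5 role groups from each gene's mean over 12 libraries, with 1 point per library, lines for group means and open points for AGEs 1 and glucose 3. Over all members the libraries with glucose lie between -0.10 and -0.01 and those without between 0.02 and 0.10, and the OAS panel shows the widest gap.

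AGEs against BSA asked what AGEs do without added glucose. Below 0 lay 28 of 46 members (60.9%), against 50.5% of all genes, the median member stood at -0.03 on the log2 scale, and none passed, where 0.0308% of all genes did. At an unadjusted p under 0.05, 1 member was lower (SAMD9) and 3 were higher (TRIM21, ISG15 and IFI6), against 2.01% and 2.73% of all genes, and without AGEs 2 none was higher. The AGEs libraries lay wholly below BSA in 2 members, SAMD9 and IFIH1, and wholly above in 3, TRIM21, IFI35 and HERC6, against 3.98% and 4.82% of all genes. ISG15 stood at 43.6, 42.7 and 37.0 FPKM in AGEs, against 28.9, 28.3 and 38.7 FPKM in BSA (log2 fold change 0.36, SE 0.13, adjusted p = 0.958). IFI6, a mitochondrial and reticulum protein that opposes apoptosis, stood at 88.8, 140.0 and 80.6 FPKM in AGEs, against 82.3, 60.5 and 80.2 FPKM in BSA (log2 fold change 0.44, adjusted p = 0.977). Without AGEs 2, the library at 140.0 FPKM, it was 0.20. SAMD9, an antiproliferative restriction factor, stood at 7.82, 11.2 and 10.2 FPKM in AGEs, against 12.2, 12.4 and 11.9 FPKM in BSA (log2 fold change -0.31, adjusted p = 0.967), and without AGEs 1 the log2 fold change was -0.17. OAS1 and OAS3, lower with glucose in all libraries, had log2 fold changes of -0.02 and 0.00 here.

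AGEs with glucose against glucose, which shares no library with AGEs against BSA, gave 19 of 46 members (41.3%) below 0, against 50.1% of all genes, and a median member at 0.02 on the log2 scale. Without glucose 2 it was 25 of 46 and the median turned to -0.01, and without glucose 3 it was 11 of 46 and 0.04, so this direction rests on single libraries. None passed, where 0.0308% of all genes did, and 3 members were higher at an unadjusted p under 0.05 and 0 lower, against 3.39% and 2.66% of all genes. Without glucose 3 none was higher. ISG15 stood at 36.2, 38.9 and 35.4 FPKM in AGEs with glucose, against 29.2, 31.8 and 23.7 FPKM in glucose, without overlap (log2 fold change 0.38, adjusted p = 0.753). The groups were apart in 3 lower members (SAMHD1, TRIM21 and LAP3) and 6 higher ones (ISG15, BST2, TRIM22, IRF7, EIF2AK2 and IFIT5), against 7.86% and 7.67% of all genes. BST2 stood at 131, 124 and 129 FPKM in AGEs with glucose, against 121, 120 and 107 FPKM in glucose, also without overlap. Over both AGEs comparisons 12 members (26.1%) lay below 0 both times, against 27.1% of all genes. Above 0 both times lay 11 members, against 2578 of all 9751 genes. AGEs with glucose against BSA gave 36 of 46 members (78.3%) below 0, against 52.1% of all genes. This comparison shares its BSA libraries with 2 of the comparisons above and its AGEs with glucose libraries with 2 others. The median of the members was -0.08, and of the 43 members at 1 FPKM in every library 33 lay below 0. There 6 members were lower at an unadjusted p under 0.05 and 0 higher, against 2.52% and 2.95% of all genes, and none passed, where 0.0103% of all genes did. Groups were apart in 11 lower members, OAS1, OAS3, IFIT2, IFIT3 and IRF7 among them, and 1 higher, IFITM1, against 9.14% and 8.51% of all genes. The 6 members at an unadjusted p under 0.05 became 2 without AGEs with glucose 1 and 3 without AGEs with glucose 3 or BSA 2.

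Other genes of the pathway were taken from a list of 48, of which 33 were in the table and tested, while the 5 interferon ligands were not analysed here. None of the 33 passed in any comparison. In glucose against BSA 24 of 33 (72.7%) lay below 0, against 50.4% of all genes, and the median gene of the list stood at -0.12 on the log2 scale. The receptor chains IFNAR1 and IFNAR2 had log2 fold changes of -0.11 and 0.01 there, and the kinases JAK1 and TYK2 -0.12 (-0.08 without BSA 2) and -0.14. Of 6 measured targets shared with interferon gamma 4 lay below 0 and 2 above. PSMB8 and PSMB9, subunits of the immunoproteasome, averaged 71.2 and 13.1 FPKM in glucose and 67.0 and 12.3 FPKM in BSA, with overlap. GBP2, a guanylate-binding protein, stood at 0.933, 0.840 and 0.951 FPKM in glucose, against 1.32, 1.96 and 1.95 FPKM in BSA (log2 fold change -0.51, SE 0.10, adjusted p = 0.138). HLA-E, a ligand of NK cell receptors, stood at 191, 191 and 188 FPKM in glucose, against 218, 219 and 224 FPKM in BSA (log2 fold change -0.21, SE 0.05, adjusted p = 0.161). GBP2 and HLA-E were apart without overlap. GBP2 reached 1 FPKM in 0 glucose libraries and in all libraries of the other groups, so it passed the filter only through groups where it was higher. UBA7, the activating enzyme for ISG15, had a log2 fold change of -0.23 (adjusted p = 0.394). SOCS1, which shuts off JAK signalling, ran the other way, at 1.32, 1.07 and 1.07 FPKM in glucose, against 0.346, 0.766 and 0.875 FPKM in BSA (log2 fold change 0.39, adjusted p = 0.533, and 0.24 without BSA 1). SOCS1 was near the filter too, reaching 1 FPKM in 3 glucose libraries and 0 BSA libraries. With AGEs, 23 of the 33 (69.7%) lay below 0 in AGEs with glucose against AGEs, against 49.6% of all genes. In AGEs against BSA 15 of 33 (45.5%) did, against 50.5% of all genes.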

How the data were processed

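RNA of 12 libraries, 3 in each of 4 groups, was sequenced. The authors deposited FPKM values per gene, per the file headers, with 1 column for each library (10465 rows). HISAT2 2.0.5, STAR 2.5.2b, StringTie, cutadapt and build hg19 are named, without role or order, per the submitters' processing notes. Annotation, strand setting and filters: not given in the sources used here. FPKM keeps no read counts, so no counting intervals were computed.

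Values were analysed as log2(FPKM + 1), which understates the change of low genes. Rows with at least 1 FPKM in at least 3 libraries, whatever their group, were kept (9751), and 714 were removed. All 12 libraries entered 1 fit in limma 3.58.1 (R 4.3.3, statmod 1.5.0) with intensity trend and robust moderation, tested on simulated data. Adjusted p-values are Benjamini-Hochberg values over all 9751 genes of a contrast, with a threshold of 0.05. The glucose effect averaged over both backgrounds and the interaction came from the same fit. Every member may be named, with full statistics for up to 10 of smallest p in glucose against BSA and the averaged glucose effect, for up to 4 elsewhere, and for up to 4 per comparison of opposite sign. OAS1, OAS3, STAT2, IRF1, IRF7, IRF9 and ISG15 are always given. HLA-E, GBP2, UBA7, SOCS1 and other pathway or role examples were picked after their values were seen. The members and lists were chosen with earlier results of these data known. Promoter sequences are RefSeq windows of GRCh38.p14, another build than that of the table, matched by symbol, and overlapping genes were taken from the reference annotation. DDX58 was matched to RIGI.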

Additional observations from a re-analysis of the deposited data

How the results depend on the processing

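Over 23 alternative settings, 463 recomputed summary values kept their size or call and 14 did not. The median log2 fold change in AGEs with glucose against glucose, 0.02, turned to -0.01 without glucose 2. With a mean of at least 5 FPKM, 30 members were left, so fewer could lie below 0: 26 in glucose against BSA, 24 for glucose averaged over both backgrounds, 22 in AGEs with glucose against BSA, 19 in AGEs with glucose against AGEs (median log2 fold change -0.0302), 9 in AGEs with glucose against glucose and 11 in the interaction. Members passing the threshold numbered 1 of 127 genes called with library weights in glucose against BSA and 1 of 16 in the averaged glucose effect, 2 of 48 and 2 of 18 with GC and length trends removed, and 1 of 73 in glucose against BSA without AGEs 1 and glucose 3, against 10 and 4 genes called otherwise. The cause was not tested. In AGEs with glucose against glucose, 11 to 25 members lay below 0 when 1 library was left out, 11 without glucose 3 and also without both outlying libraries. Leaving out 1 library gave 35 to 40 members below 0 in glucose against BSA. Same-numbered libraries did not deviate together (correlations -0.21 to 0.13, with 3 of 12 libraries closest to their own number), so the numbers do not pair them. With a replicate block 0 members passed in any comparison, the smallest adjusted p of a member in glucose against BSA being 0.305, and 40 members lay below 0 there. Read depth is unknown, and members near 1 FPKM (CMPK2, USP18 and HERC5) are the least certain, as are the pathway genes GBP2 and SOCS1.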

Other observations

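In IFITM2, IFITM3 and MX2 the range within the glucose, AGEs and BSA groups was wider than any difference between group means, and in IFITM2 and IFITM3 the same libraries stood high. IFITM2 was at 69.8 FPKM in glucose 3, against 51.9 and 56.9 FPKM in the other glucose libraries, at 73.7 FPKM in AGEs 1, against 55.0 and 54.1 FPKM in the other AGEs libraries, and at 73.2 FPKM in BSA 2, against 59.3 and 48.2 FPKM in the other BSA libraries. IFITM3 was likewise highest of its group in glucose 3 (4.21 FPKM), AGEs 1 (4.44 FPKM) and BSA 2 (3.56 FPKM). SAMD9L, an antiviral relative of SAMD9, stood at 2.00 FPKM in AGEs 1 and 5.12 and 2.89 FPKM in the other AGEs libraries. These genes were picked after their values were seen, and nothing was tested.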
